A study of Homo sapiens with 6 samples.

Results

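Cytosolic ribosomal protein genes were followed in RNA sequencing of HL60 cells, a human line from a promyelocytic form of acute leukaemia. Members were the genes whose symbols begin with RPL or RPS followed by a number, with an optional A, L or X, together with RPLP0, RPLP1, RPLP2 and RPSA, provided that they held at least 100 counts over all libraries. Of 56638 gene names, 87 matched and 84 passed the minimum. They comprised 50 genes of the large subunit, 32 of the small subunit and 2 loci, RPS10L and RPL12L3, whose names RefSeq lists as synonyms of pseudogenes. Just inside the minimum lay RPL12L3 with 110 counts and RPS10L with 164, and outside it lay RPL10L with 8 and RPL3L with 6.

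The 6 libraries were 3 of SKI knockout cells, made by CRISPR/Cas9 and drawn from the line numbered 3, and 3 of CRISPR/Cas9 control cells from the line numbered 1, all grown with 10% serum. SKI encodes a co-repressor of SMAD-dependent transcription. Each group was thus 1 line, and since nothing in the labels says that replicates were separate cultures, p-values reflect the spread among these 6 libraries alone, part or all of which may be technical. SKI itself stood at 59.6, 40.7 and 42.0 CPM (counts scaled to a common library size) in the knockout libraries and at 63.9, 83.5 and 88.5 CPM in the control libraries (edgeR log2 fold change -0.73, adjusted p = 0.0282).

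The eukaryotic ribosome is built from a small subunit, which decodes the mRNA, and a large subunit, which forms peptide bonds, and each holds ribosomal RNA and a set of proteins made in matched amounts. Most ribosomal protein mRNAs begin with a 5′ terminal oligopyrimidine (TOP) tract, a C followed by a run of C and T (U in the RNA), through which mTOR signalling and the binding protein LARP1 set their translation and stability. In blood-forming cells a reduced dose of certain ribosomal proteins causes Diamond-Blackfan anaemia, and free RPL5 and RPL11 bind MDM2 and stabilise p53.

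The start of the transcript is shown for 8 members whose levels are described below, because the TOP tract is the sequence feature that most of the genes share. Each sequence holds 40 bases before and 20 bases from the start annotated by RefSeq (GRCh38.p14), read 5′ to 3′ on the gene's strand, with the C-led pyrimidine run at the start in capitals. RPS12 (chr6:132814529-132814588, plus strand) and RPS18 (chr6:33272035-33272094, plus strand) lie on chromosome 6. RPL13A (chr19:49487568-49487627, plus strand) and RPL18 (chr19:48619159-48619218, minus strand) lie on chromosome 19. RPL35 (chr9:124861938-124861997, minus strand) and RPL7A (chr9:133348178-133348237, plus strand) lie on chromosome 9. RPL7L1 (chr6:42879576-42879635, plus strand) and RPS27L (chr15:63157458-63157517, minus strand), diverged relatives of RPL7 and RPS27, have no such run at the annotated start.
RPS12: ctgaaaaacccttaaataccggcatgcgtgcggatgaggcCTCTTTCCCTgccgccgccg
RPS18: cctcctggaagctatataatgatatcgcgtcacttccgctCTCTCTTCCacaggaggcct
RPL13A: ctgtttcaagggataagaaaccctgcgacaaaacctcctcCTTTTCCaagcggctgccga
RPL18: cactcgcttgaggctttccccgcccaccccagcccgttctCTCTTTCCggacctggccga
RPL35: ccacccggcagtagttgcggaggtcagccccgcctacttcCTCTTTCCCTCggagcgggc
RPL7A: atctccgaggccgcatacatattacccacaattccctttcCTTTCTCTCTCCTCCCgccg
RPL7L1: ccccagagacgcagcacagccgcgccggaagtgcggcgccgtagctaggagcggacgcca
RPS27L: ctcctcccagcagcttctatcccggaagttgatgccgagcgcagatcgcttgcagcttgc

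The run was 10 bases long in RPS12, 7 in RPL13A and 16 in RPL7A. Of the 66 members matched in the RefSeq table, 47 (71.2%) had C at the annotated start followed by at least 4 C or T bases, against 5.14% of the 27305 genes of the table. In the window from 250 bases before to 50 after the start, CCGGAAG, a core bound by ETS factors, occurred on either strand in 36.4% of these members and in 12.2% of all genes. TATAAA was found in 9.09% of members and 13.99% of genes, and CACGTG, the E-box bound by MYC and USF proteins, in 7.58% of members and 8.77% of genes. These matches describe letters in a window and not binding.

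Before the groups are compared, 2 libraries have to be set apart, because they stood above the others of their group for nearly all members. Library totals were between 47930276 and 58553247 counts, and 75 of the 84 members had at least 20000 counts in every library, so that counting error was small beside the spread between libraries. Members held 15.4%, 16.1% and 23.0% of all gene counts in knockout replicates 1, 2 and 3, and 18.5%, 14.9% and 15.8% in control replicates 1, 2 and 3. Knockout replicate 3 was the highest library, control replicate 1 came next, and the other 4 lay close together with both groups intermixed. The 95% exact binomial (Clopper-Pearson) interval of the share in knockout replicate 3 was 22.98% to 23.0%, and such intervals cover counting error only. The group means were 18.1 ± 4.22% in the knockout and 16.4 ± 1.87% in the control (SD, n = 3 each), a difference of 1.72 percentage points that was smaller than the SD within the knockout. With knockout replicate 3 and control replicate 1 left out, the means were 15.7% in the knockout and 15.4% in the control, a difference of 0.338 percentage points, and without knockout replicate 3 alone the difference turned to -0.712 percentage points.

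**Figure D1:**
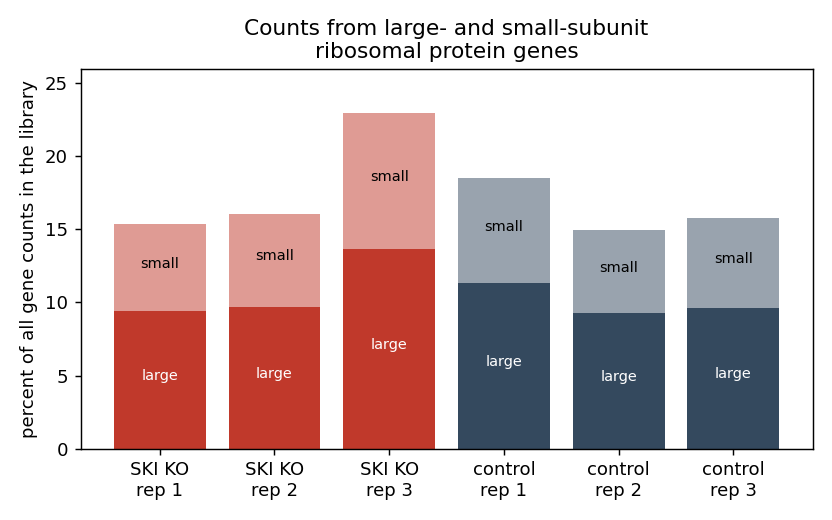
Percent of all gene counts in each library (y axis) that came from the ribosomal protein genes, for the 3 SKI knockout libraries (red, left) and the 3 control libraries (blue-grey, right), with the large subunit below and the small subunit above. Knockout replicate 3 reaches 23.0% and control replicate 1 18.5%, while the other 4 libraries lie between 14.9% and 16.1%.

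Both subunits took part in the higher share of knockout replicate 3. Counts of large-subunit genes were 1.58, 1.52 and 1.46 times those of small-subunit genes in knockout replicates 1, 2 and 3, and 1.57, 1.64 and 1.55 times in the control replicates. Knockout replicate 3 had the lowest ratio and control replicate 2 the highest, and the groups overlapped. The medians of the members' log2 CPM, each taken relative to the gene's mean over the 6 libraries, were -0.27, -0.05 and 0.54 in the knockout and 0.16, -0.23 and -0.17 in the control. Knockout replicate 3 was the highest of the 6 libraries for 72 of 84 members, against 26.4% of all tested genes. Other short genes with an average log2 CPM above 4 shared much of this. It was the highest library for 92 of 146 such genes under 300 coding bases. The same held for 191 of 340 with 300 to 450 coding bases, and for 32 of 1037 with at least 3000. Control replicate 1 was the highest control library for 80 of 84 members, against 34% of all tested genes. Knockout replicate 3 exceeded the mean of knockout replicates 1 and 2 by a median of 0.74 on the log2 scale (1.67-fold) over members, where the median over all genes was -0.00. Control replicate 1 exceeded the mean of control replicates 2 and 3 by a median of 0.35 (1.28-fold), where the median over all genes was 0.02.

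**Figure D2:**
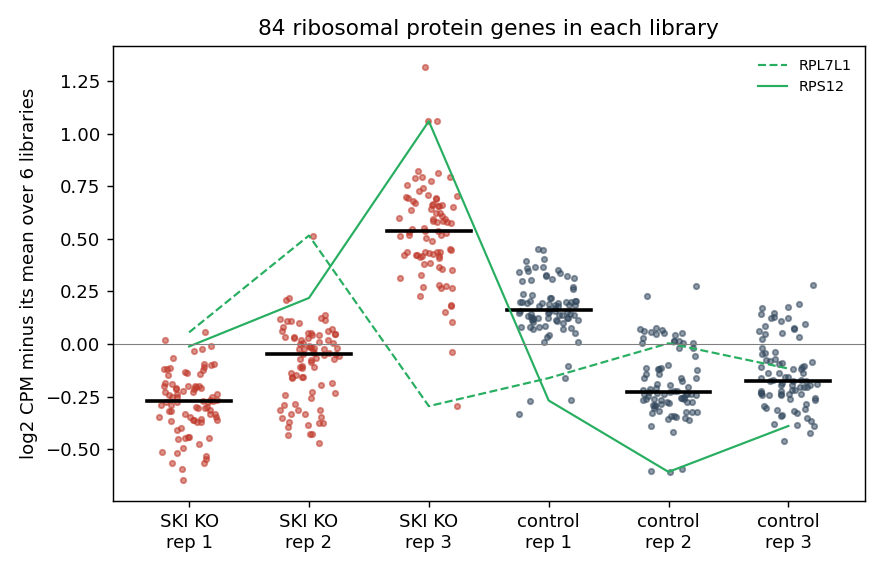
Each point is 1 of the 84 ribosomal protein genes in 1 library (x axis), as log2 CPM minus the gene's mean over the 6 libraries (y axis), with knockout libraries in red at the left, control libraries in blue-grey at the right and the median as a black bar. The medians are highest in knockout replicate 3 (0.54) and control replicate 1 (0.16), while RPL7L1 (dashed line) is lowest in knockout replicate 3 and RPS12 (solid line) is higher in every knockout library than in any control library.

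The genes that did not follow this shift were few. RPL7L1, a nucleolar paralogue of RPL7, stood at 220.6, 303.6 and 172.9 CPM in the knockout and at 189.7, 212.8 and 195.7 CPM in the control, and it was lowest in knockout replicate 3, by 0.58 on the log2 scale below the mean of replicates 1 and 2. The same difference was 0.12 for RPS26, a small-subunit protein near the mRNA exit, 0.25 for RPL22L1, a paralogue of RPL22, 0.26 for RPS7 and 0.27 for RPL26L1, a paralogue of RPL26. Among the largest were RPS28, which lies near the mRNA exit, at 1.10 and RPLP2, an acidic protein of the stalk, at 1.06. By the letters at the annotated start alone, members with a TOP start had a median difference of 0.79 (47 genes) and those without one 0.53 (19 genes). The 19 include RPL7L1, RPS26, RPS7 and RPL26L1 as well as RPS28, and a TOP tract at another start would be missed. The median difference was 0.03 over 459 other genes with a TOP start by the same letters and an average log2 CPM above 4. From a list of 21 other mRNAs known to carry a TOP tract, among them EEF1A1, EEF2 and TPT1, the median was 0.41.

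The levels of other genes moved with coding length, most of all in knockout replicate 3. Members were short, with a median coding length of 453 bases (82 genes with a value) against 1380 bases for all tested genes with a value. Among other genes with an average log2 CPM above 4, the 146 shorter than 300 bases had median deviations from the mean over the 6 libraries of -0.11, 0.04 and 0.34 on the log2 scale in the knockout and 0.07, -0.05 and -0.22 in the control. The 1037 genes of at least 3000 bases had medians of 0.03, 0.07 and -0.38 in the knockout and -0.04, 0.14 and 0.22 in the control. Short genes were thus high and long genes low in knockout replicate 3, and its median for members, 0.54, lay above that of every length class. The part of transcript length in the members' values was not tested beyond removing each library's trend with coding length, a setting added once the data had been seen, which brought the members' median log2 fold change between groups to 0.07.

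**Figure D3:**
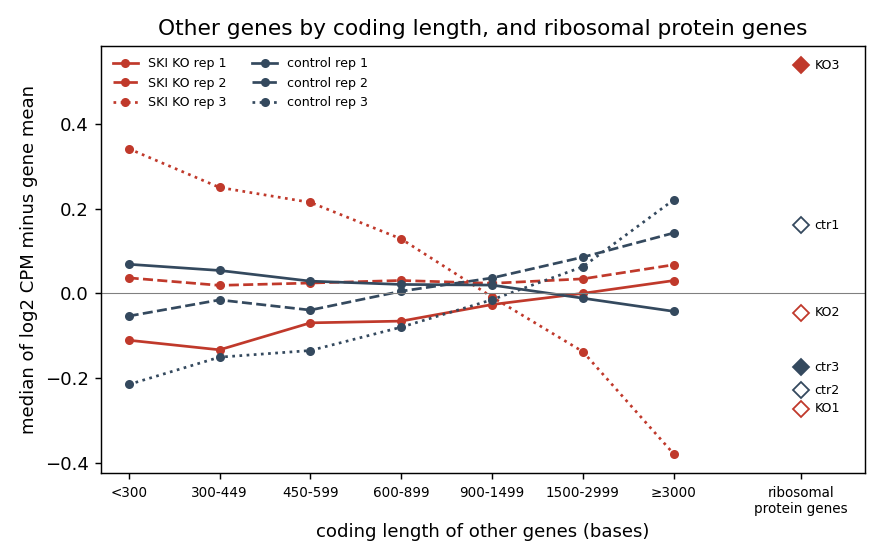
Median over genes of log2 CPM minus the gene's mean over the 6 libraries (y axis) for genes outside the ribosomal protein set in 7 classes of coding length (x axis), with the ribosomal protein genes as diamonds at the right. Knockout replicate 3 (red dotted line) runs from 0.34 in the shortest class to -0.38 in the longest, control replicate 3 (blue-grey dotted line) runs the opposite way from -0.22 to 0.22, and the diamond of knockout replicate 3 stands at 0.54.

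Setting the knockout against the control asks whether ribosomal protein mRNA levels differ where SKI was targeted. In edgeR's quasi-likelihood test with Benjamini-Hochberg adjustment over 16340 genes, 0 of the 84 members were higher and 0 lower at an adjusted p under 0.05, where 6.19% of all genes tested were higher and 5.63% lower. At an unadjusted p under 0.05 there were 2 members, RPS12 and RPL39L, both higher. DESeq2's Wald test called 1 member higher (RPS12) and 0 lower, where it called 8.62% of all genes higher and 7.45% lower. Limma-voom called 0 members, where it called 5.87% of all genes higher and 5.68% lower. Log2 fold changes ran from -0.42 (RPS15) to 0.92 (RPS12) with a median of 0.20, against -0.01 over all genes, and 81 of 84 were smaller than 0.5 in size. Their direction was positive for 62 members and negative for 22. The median standard error was 0.24, and the median SD of log2 CPM within a group was 0.36 for members, against 0.20 for all tested genes with an average log2 CPM above 4. Without knockout replicate 3 the median turned to -0.06, with 31 members positive and 53 negative.

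RPS12, a protein of the small-subunit head, had the largest difference. It stood at 4326, 5076 and 9097 CPM in the knockout and at 3619, 2859 and 3327 CPM in the control. All knockout libraries were above all control libraries, and knockout replicate 3 was far above the rest. The means were 6166 ± 2565 CPM in the knockout and 3269 ± 383 CPM in the control (SD, n = 3 each), with a log2 fold change of 0.92 (SE 0.28, edgeR adjusted p = 0.0555), just short of the threshold. RPS12 passed it in 10 of 19 alternatives, over which the adjusted p ranged between 6.23e-05 with no filter on low counts and 0.329 relative to its chromosome. Leaving out knockout replicate 3 gave 0.54 (adjusted p = 0.0498), and leaving out control replicate 2 gave 0.83 (adjusted p = 0.205). The authors' deposited table puts RPS12 at a log2 fold change of 0.85 (adjusted p = 0.00435).

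RPL39L, a paralogue of the exit-tunnel protein RPL39 known chiefly from male germ cells, was the other member whose groups did not overlap. It stood at 9.16, 9.15 and 19.5 CPM in the knockout and at 8.66, 6.11 and 7.49 CPM in the control, with a fold change of 0.76 on the log2 scale (SE 0.29, adjusted p = 0.116). Groups did not overlap in the higher direction for these 2 members of 84 and in the lower direction for 0, where the shares over all tested genes were 16% and 16.1%. In the authors' deposited table, which lists all 84 members, 2 were higher and 0 lower at an adjusted p under 0.05, with a median log2 fold change of 0.21, where 8.09% of the 18100 genes with an adjusted p in that table were higher and 6.35% lower.

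**Figure D4:**
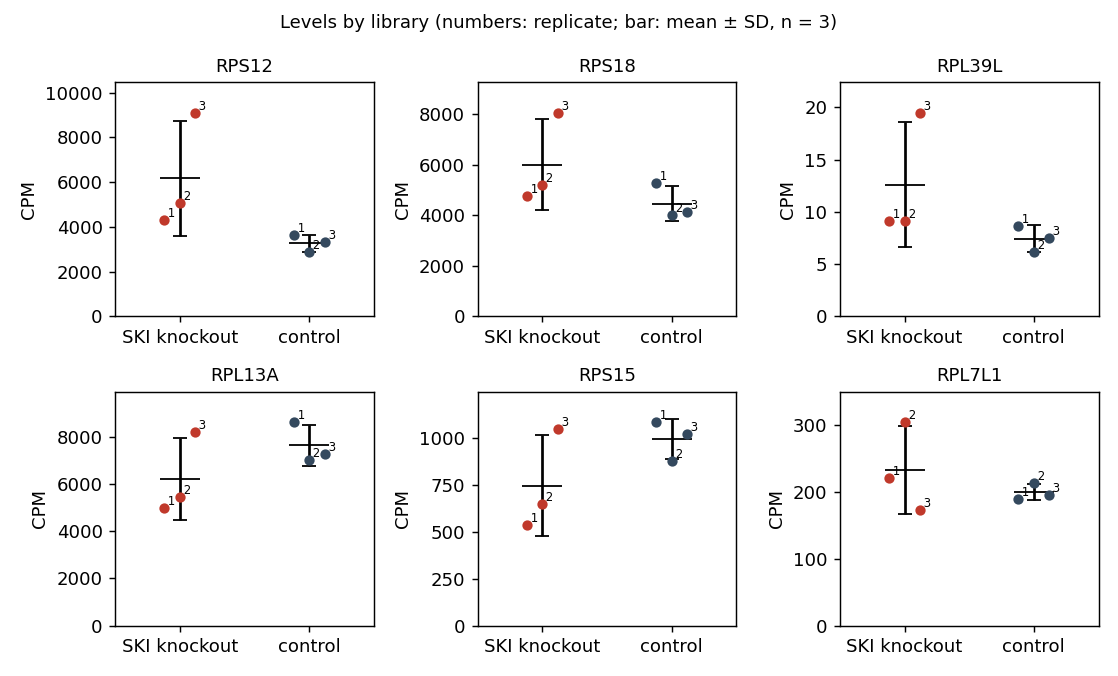
CPM (y axes, from 0) of 6 ribosomal protein genes in each library, knockout in red at the left and control in blue-grey at the right of each panel, with replicate numbers beside the points and the mean ± SD (n = 3) as bars. RPS12 and RPL39L do not overlap between groups, the groups overlap in RPS18, RPL13A and RPS15, and RPL7L1 is lowest in knockout replicate 3.

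Members of chromosomes 19 and 6 lay on opposite sides of 0. All 12 members on chromosome 19 had negative log2 fold changes, with a median of -0.25 and a range of -0.42 to -0.11, while the 682 other chromosome 19 genes above log2 CPM 2 had a median of -0.48. All 5 members on chromosome 6 (RPS12, RPS18, RPS10, RPL10A and RPL7L1) had positive values, with a median of 0.40, and the 513 other chromosome 6 genes had a median of 0.43. The 62 members on chromosomes other than 6, 9, 19 and 22 had a median of 0.22. The mean log2 level of chromosome 19 members minus that of the other members, counted from the mean of the control libraries, was -0.46, -0.56 and -0.37 in the knockout and -0.03, -0.03 and 0.06 in the control. All 3 knockout libraries, replicate 3 included, were below all control libraries in this difference. For chromosome 6 members the same quantity was 0.33, 0.32 and 0.10 in the knockout and -0.08, 0.03 and 0.05 in the control. When each gene was taken relative to the other genes of its chromosome, all 12 chromosome 19 members turned positive, between 0.04 (RPS15) and 0.34 (RPS28). The log2 fold change of RPS12 was 0.48 in that fit (adjusted p = 0.329), against 0.92 without that adjustment, while RPS18, RPS10, RPL10A and RPL7L1 lay between -0.22 and -0.01. The source of the chromosome-wide differences was not tested.

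**Figure D5:**
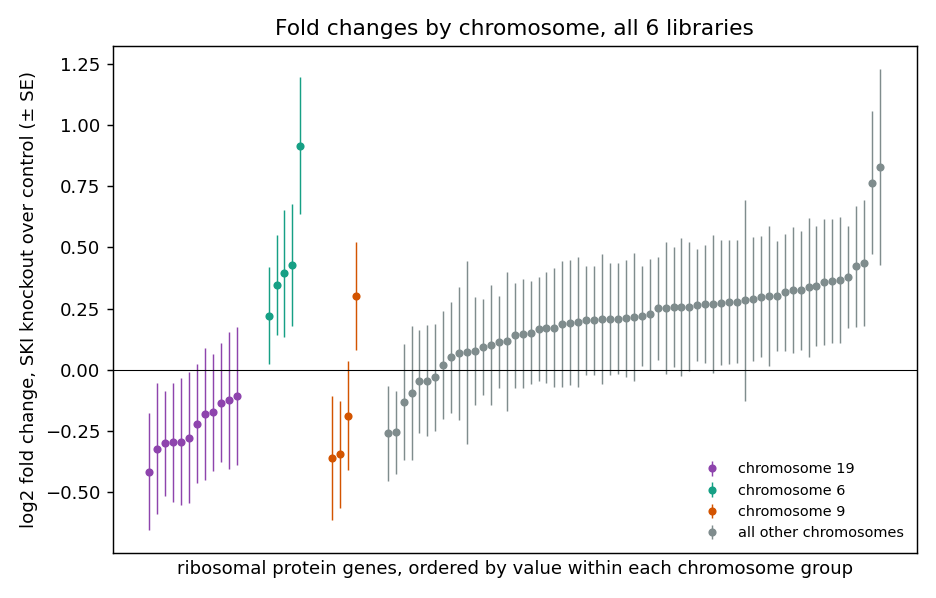
Log2 fold change of each of the 84 ribosomal protein genes, SKI knockout over control, with its standard error (y axis), ordered by value within chromosome 19 (purple), chromosome 6 (green), chromosome 9 (orange) and all other chromosomes (grey). The 12 genes of chromosome 19 lie between -0.42 and -0.11, the 5 of chromosome 6 are all positive with RPS12 at 0.92, and most of the grey points lie above 0.

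RPS15, a protein of the small-subunit head encoded on chromosome 19, stood at 538.2, 649.8 and 1049.6 CPM in the knockout and at 1085, 880.4 and 1023 CPM in the control. The first 2 knockout libraries were below every control library and replicate 3 was among them. The log2 fold change was -0.42 (SE 0.24, adjusted p = 0.291) with all libraries and -0.73 (adjusted p = 0.0104) without knockout replicate 3, and over 19 alternatives the adjusted p ranged between 0.0104 and 0.940. RPL13A, a large-subunit protein also known in human monocytes as part of the GAIT complex, stood at 4995, 5449 and 8172 CPM in the knockout and at 8605, 7021 and 7254 CPM in the control (log2 fold change -0.30, SE 0.24, adjusted p = 0.469). Without knockout replicate 3, 9 members were lower in the knockout (among them RPS15, RPS19, RPL18, RPL36, RPS28 and RPL28 on chromosome 19, and RPL35 on chromosome 9) and RPS12 was higher, where 6.43% of all genes were lower and 7.16% higher. With control replicate 1 left out as well, RPS15, RPS19, RPL18 and RPL35 were lower and RPS12 higher, where 4.79% of all genes were lower and 5.06% higher. Each of these fits holds fewer libraries, and 0 members were lower without any other single library. Knockout replicate 3 was set apart because members were high in it. Leaving it out therefore lowers the members' fold changes by construction, and the lower calls in these fits are no separate result.

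Chromosome 9 carries 4 members. RPL35, at the exit tunnel, RPL7A, of the large subunit, and RPL12, at the base of the stalk, lie on the long arm and had log2 fold changes of -0.36, -0.35 and -0.19. RPS6, the small-subunit protein phosphorylated by S6 kinases, lies on the short arm and had 0.30, and no member of the 4 passed the test. The 404 other chromosome 9 genes above log2 CPM 2, not split by arm, had a median of -0.23. Relative to the other genes of the chromosome, RPL35 had -0.12, RPL7A -0.11, RPL12 0.05 and RPS6 0.54. RPL35 stood at 940.0, 1087 and 1832 CPM in the knockout and at 1943, 1478 and 1535 CPM in the control. RPL3, which lies near the peptidyl transferase centre and is the member on chromosome 22, differed by 0.21 on the log2 scale (SE 0.23, adjusted p = 0.602), where 268 other chromosome 22 genes had a median of 0.23.

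Taking each level relative to the median member of its library removes, by construction, the shift that members share and adds it, with the opposite sign, to all other genes. Shares of all genes on this scale are therefore no like-for-like background for the members' counts. On this log2 scale RPS12 was at 1.74, 1.76 and 1.86 in the knockout and at 0.999, 1.06 and 1.24 in the control. RPL35 was at -0.46, -0.46 and -0.45 in the knockout and at 0.10, 0.11 and 0.13 in the control. RPL13A was at 1.95, 1.86 and 1.71 in the knockout and at 2.25, 2.36 and 2.37 in the control. In each of these genes the groups did not overlap, and knockout replicate 3 lay with its own group. On this scale 12 members were higher in every knockout library (among them RPS12, RPS18, RPL39L, RPL21, RPS27, RPL26, RPS25, RPL35A, RPL9, RPS13 and RPL32), where 6.63% of all genes were. A further 18 members were lower in every knockout library, where 10.6% of all genes were, and they included all 12 of chromosome 19 along with RPL35, RPL7A, RPL12, RPS2, RPS29 and RPS27L. In an edgeR fit scaled to the members themselves, which moves other genes in the same way and was also added once the data had been seen, RPS12 was higher (log2 fold change 0.69, adjusted p = 0.00568), where 2.2% of all genes were higher. RPL13A (-0.48, adjusted p = 0.0276) and RPL7A (-0.52, adjusted p = 0.0498) were lower in that fit, where 1.88% of all genes were lower. With trends in coding length removed instead, RPS12 was higher (0.75, adjusted p = 0.0426), where 7.38% of all genes were higher, and 0 members were lower, where 6.25% were.

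Grouped by place in the ribosome, no list had a member past the threshold in the comparison of all 6 libraries. Over all genes tested, 6.19% were higher and 5.63% lower, so a count of 0 in a list of a few genes says little. The large subunit had a median log2 fold change of 0.20 over 50 genes and the small subunit 0.20 over 32. The 14 proteins of the small-subunit head spread most, between RPS15 at -0.42 and RPS12 at 0.92, with a median of 0.22 and 6 negative values. The 10 exit-tunnel proteins had a median of 0.20, and RPL35 was the negative value among them. In the stalk that recruits translation factors, RPLP0 had -0.03, RPLP1 0.25, RPLP2 0.26 and RPL12 -0.19. RPL5 and RPL11, which join 5S rRNA in the particle that can bind MDM2, had 0.14 and 0.21. The 23 genes mutated in Diamond-Blackfan anaemia had a median of 0.21, with 16 positive and 7 negative values.

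Each tested paralogue was below its parent in level per kilobase of coding sequence, by mean CPM over the 6 libraries. RPL7L1 came nearest, with 282 against 841 for RPL7, and RPL26L1 lay farthest below, with 23.6 against 3567 for RPL26. Over all members, per kilobase of coding sequence, RPL41, the shortest protein, had 11957 CPM, RPS12 11912.5, RPS18 11452 and RPL13A 11356, and these neighbours did not differ beyond their spread between libraries. Counts cover whole exons, untranslated parts included, so a short coding sequence raises this value. RPL41, with 75 coding bases, had a mean of 897 CPM, under the median of 1630 CPM over members. Among the lowest, beside RPL26L1, were RPS27L, a target gene of p53, at 46.4 and RPL39L at 65.4 CPM per kilobase. In log2 fold change the 5 tested paralogues had a median of 0.02 (3 positive and 2 negative) and their 7 parents a median of 0.21 (all positive). Past the threshold were 0 in either list, where 6.19% of all genes tested were higher and 5.63% lower. Of ribosomal proteins named outside the rule, FAU, the precursor of RPS30, had a log2 fold change of 0.17, RPL36AL, a copy of RPL36A, -0.42, and GNB2L1, which encodes the scaffold RACK1, 0.10. All of these missed the threshold, and knockout replicate 3 was the highest library for FAU and GNB2L1.

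Several members carry counts that depend on how shared reads were assigned, a setting that no source used here gives. RPS26, which has many processed pseudogenes, had 22015 counts over 6 libraries, against a median of 517186 per member, so its level is uncertain. The read-through names RPL17-C18orf32, RPS10-NUDT3 and RPL36A-HNRNPH2 held between 96.0% and 97.7%, 89.9% and 94.2%, and 96.2% and 98.6% of the counts of RPL17, RPS10 and RPL36A, with no separation of the groups. In GENCODE 29, 30 members share exonic bases with an opposite-strand gene and 35 with a same-strand gene. The 856 names of ribosomal protein pseudogenes held 0.0469% to 0.0654% of all counts.

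Genes that act on ribosomal protein mRNAs and proteins were set beside the members. Of 21 other TOP mRNAs 0 passed the test in either direction, with a median log2 fold change of 0.06 and 13 positive values. With 6.19% of all genes tested higher and 5.63% lower, a count of 0 in a list this short says little. Of 18 regulators of TOP mRNAs, such as LARP1 (log2 fold change -0.47, SE 0.22, adjusted p = 0.197) and MTOR, 0 passed, with a median of -0.23 and 15 negative values. Long genes also leaned negative. The 1037 other genes of at least 3000 coding bases and an average log2 CPM above 4 had a median of -0.18, with 282 positive and 755 negative values. The part of coding length in the regulators' values was not tested. Of 20 tested chaperones and assembly factors, 2 fell in the knockout and 0 rose, where 5.63% of all genes tested were lower and 6.19% higher. GRWD1, the chaperone of RPL3, stood at 56.1, 58.8 and 43.5 CPM in the knockout and at 84.6, 106.2 and 101.6 CPM in the control (log2 fold change -0.88, SE 0.17, adjusted p = 0.00623). PDCD2L, a relative of the RPS2 chaperone PDCD2, changed by -0.72 on the log2 scale (SE 0.15, adjusted p = 0.0116). Both lie on chromosome 19, where 29.3% of the 960 tested genes outside the ribosomal protein set were lower.

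Markers of the cell type also differed between the groups. Of 11 tested promyelocytic markers 7 fell in the knockout and 0 rose, where 5.63% of all genes tested were lower, and 4 of the 7 (AZU1, PRTN3, CD33 and CEBPA) lie on chromosome 19, where 29.3% were. The other of the 12 listed markers, ELANE, reached at most 0.0679 CPM in any library, control libraries included, and was not tested. The summed level of the markers was 3571 to 9685 CPM in the knockout and 13433 to 15689 CPM in the control, without overlap. Most of this sum was MPO, at 2562 to 8538 CPM in the knockout and 11626 to 13987 CPM in the control. The 10 markers of other cell types reached at most 0.251 CPM and 2 of them were at 0. In bulk RNA, fewer cells of a type and less RNA per cell cannot be told apart. With counts of MPO, the most abundant marker, removed from the totals, the share of ribosomal protein counts averaged 18.2% in the knockout and 16.6% in the control, a difference of 1.59 percentage points in place of 1.72.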

How the data were processed

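Libraries of polyadenylated RNA were made with a stranded kit, per the labels' protocols. Tools listed in the submitters' processing notes are TopHat2, featureCounts of Subread, DESeq and DESeq2, with bcl2fastq and the build hg19 (GRCh37). No source used here gives the strand setting or how shared reads were treated. The authors' table of raw counts also gives each gene's summed exon length, and the other deposited table has counts over size factors (a signal) beside log2 fold changes, a test score and p-values. Counts were tested with edgeR 4.0.16 (filterByExpr, TMM, quasi-likelihood F test, group only, Benjamini-Hochberg threshold 0.05, R 4.3.3), with standard errors from the F statistic. CPM uses TMM-scaled totals, and log2 levels add 0.05 CPM. DESeq2 1.42.0, limma 3.58.1, other scalings and filters, a replicate block and left-out libraries were alternatives. Library totals were 47930276 to 58553247 counts. The scripts were tested on simulated data.

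Chromosomes, coding lengths and overlaps were matched by symbol to GENCODE 29, whose build is later than that of the counts, so coordinates come only from RefSeq. Coding length is the shortest principal coding sequence. Members and lists were chosen with earlier results of these data known. The text was to name SKI, members past the threshold, the 4 highest and 4 lowest members per coding length, the 5S particle, stalk and paralogue lists, members on chromosomes 6, 19 and 22, ribosomal proteins outside the name rule and called genes of other lists. RPL35, RPL7A, RPS6, RPS2, RPS26 and other members outside this rule were chosen after their values were seen, and EEF1A1, EEF2, TPT1 and MTOR are named as examples of their lists. No 2 libraries of a group were alike within counting noise, since 66.5% to 82.6% of genes differed by more than it. Some members are not reported by name here.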

Additional observations from a re-analysis of the deposited data

How the results depend on the processing

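The count of members higher in the knockout was 0 in the comparison of all libraries and 1 with library totals, the authors' size factors, DESeq2's Wald test, scaling to the ribosomal protein genes or removal of length trends, and 3 with no filter. Leaving out libraries gave 0 to 2 higher and 0 to 9 lower, with 1 higher and 4 lower when knockout replicate 3 and control replicate 1 were both left out. The count lower was 2 when scaled to the ribosomal protein genes and otherwise 0. The members' median log2 fold change lay between -0.06 (without knockout replicate 3) and 0.36 (without knockout replicate 1), and the difference in their share of counts between -0.712 (without knockout replicate 3) and 3.11 percentage points (without knockout replicate 1). Deviations of same-numbered libraries correlated at -0.185, 0.416 and -0.0953 for numbers 1, 2 and 3, and the largest value, 0.542, was between knockout replicate 3 and control replicate 1. Only number 2 had a positive value, so the numbers were not taken as pairs, and with the replicate number as a block 0 members were higher, 0 lower, and the median was 0.17. Of 741 values for 39 named genes under the alternatives, 656 kept their direction and side of the threshold, 25 newly passed it, 5 (all of SKI) no longer did and 55 changed sign. Relative to the chromosome, log2 fold changes that changed sign were RPL10A -0.092, RPL12 0.050, RPL13A 0.16, RPL18 0.16, RPL28 0.23, RPL3 -0.041, RPL36 0.27, RPL7L1 -0.22, RPS10 -0.042, RPS15 0.038, RPS16 0.32, RPS18 -0.0092, RPS19 0.13, RPS28 0.34 and RPS9 0.28, none of them past the threshold. Scaled to the ribosomal protein genes, where the median of all genes moved to -0.13, they were RPL11 -0.0070, RPL22L1 -0.14, RPL41 -0.13, RPL5 -0.021, RPL7 -0.024, FAU -0.012 and GNB2L1 -0.081, and with length trends removed RPL22L1 -0.11 and RPL41 -0.19. The cause was not tested. With libraries left out, the log2 fold changes of these genes took both signs: RPL11 (-0.14 to 0.40), RPL22 (-0.039 to 0.38), RPL22L1 (-0.17 to 0.19), RPL26L1 (-0.17 to 0.11), RPL36 (-0.56 to 0.012), RPL41 (-0.15 to 0.26), RPL7 (-0.11 to 0.35), RPLP0 (-0.17 to 0.12), RPLP1 (-0.13 to 0.45), RPLP2 (-0.17 to 0.48), RPS16 (-0.43 to 0.024), RPS27L (-0.36 to 0.084), RPS28 (-0.55 to 0.12), RPS9 (-0.47 to 0.0033), FAU (-0.094 to 0.33) and GNB2L1 (-0.11 to 0.23). Precision was limited by the spread between 3 libraries of a group and not by depth, except for RPS10L and RPL12L3, which had 164 and 110 counts.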
